A study of Mus musculus with 30 samples.

Results

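Colon RNA of mice that lacked Xbp1 in the intestinal epithelium was set directly against colon RNA of mice that lacked Casp8 there, gene by gene. The libraries were chosen by their genotype labels, 5 mice labelled XBP1IEC-KO (here Xbp1_KO) and 5 labelled Casp8IEC-KO (here Casp8_KO), which makes 10 of the 30 libraries of the series. The letters IEC place each deletion in intestinal epithelial cells, the cells that line the gut; the labels name no Cre line, age or sex. Levels in the 5 WT mice are given for orientation. Each library came from a different mouse, the tissue was colon, and both genotypes carry their deletion alone, without the TNFR1 or MLKL deletions found in other groups of the series. Expression was read by 3′ tag sequencing, which counts transcripts near their 3′ end, and is given as CPM, a gene's share of its library's scaled read total (1 read is about 0.232 CPM here). In RNA of whole colon, fewer cells of a type and less RNA per cell cannot be told apart.

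XBP1 is a transcription factor made when the stress sensor IRE1 splices its mRNA. It raises the genes that bring proteins into the endoplasmic reticulum (ER), fold them, add sugars and clear those that fail, and secretory cells such as goblet cells depend on it. Caspase-8 starts apoptosis downstream of death receptors and at the same time holds back necroptosis, a lytic form of cell death driven by RIPK3 and MLKL. In the gut, epithelial loss of either gene is known to disturb secretory cells, by ER stress in the case of Xbp1 and by necroptosis in that of Casp8.

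Library totals were 4316399.5 to 4892575.7 reads in Xbp1_KO mice and 3516792.6 to 4383486.7 in Casp8_KO mice, and every Xbp1_KO library but Xbp1_KO replicate 4 was larger than the largest Casp8_KO library. Mitochondrially encoded RNA took 17.2 to 22.9% of the reads in Xbp1_KO libraries and 16.6 to 19.1% in Casp8_KO libraries. The colonocyte gene Slc26a3 stood at 1388 to 2676 CPM in Xbp1_KO mice, at 1392 to 2612 CPM in Casp8_KO mice and at 1657 to 2030 CPM in WT mice. The small intestinal gene Lct stayed below 1 CPM in both knockouts and the Paneth cell gene Defa17 was at 0 reads in all 10 libraries. The 18 genes of the small intestine and Paneth list were not silent as a whole, and 4 of them had 0 reads in all 10 libraries. They summed to 188 to 303 CPM in Xbp1_KO mice, 201 to 234 CPM in Casp8_KO mice and 167 to 537 CPM in WT mice. The levels of Slc26a3, Lct and Defa17 go with the tissue label, but they are single genes. Xist and Y-linked genes marked 3 female and 2 male mice in each knockout. Of the WT mice only replicate 3 was female, so WT ranges come mainly from males and differ from the knockouts in sex as well.

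The targeted genes were read first. Casp8 (ENSMUSG00000026029, GRCm38 chromosome 1, 58795374 to 58847503) had 50.9, 21.1, 61.7, 45 and 66.7 CPM in Xbp1_KO replicates 1 to 5, against 34.8, 31, 34.2, 27 and 24.7 CPM in Casp8_KO replicates 1 to 5, with 51.5 to 58.7 CPM in WT mice. The second Xbp1_KO value lay below every Casp8_KO mouse and goes against the label, while the other 4 Xbp1_KO mice lay above all Casp8_KO mice. With every library, the log2 fold change of Xbp1_KO over Casp8_KO was 0.70 ± 0.23 (SE) and did not pass (adjusted p = 0.139 in edgeR's quasi-likelihood test with Benjamini-Hochberg adjustment, as for every adjusted p here). Without the library labelled Xbp1_KO replicate 2, the log2 fold change of Casp8 was 0.89 ± 0.20 (adjusted p = 0.0228). That library was set aside for its low Casp8, so leaving it out raised this value by design, and the value is no support for the labels. Because its Casp8 goes against its label, the library is left out in a second set of values beside each main result.

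Xbp1 (ENSMUSG00000020484, chromosome 11, 5520659 to 5525893) had 54.8, 54, 52.6, 51.1 and 65.1 CPM in Xbp1_KO mice, against 86.9, 89.9, 92.5, 149 and 76.2 CPM in Casp8_KO mice, with 52.8 to 100 CPM in WT mice. The single knockouts did not overlap, and the library labelled Xbp1_KO replicate 2 lay among the other Xbp1_KO mice. Xbp1 was lower in Xbp1_KO mice (−0.83 ± 0.20, adjusted p = 0.0318), a call that missed the threshold without Xbp1_KO replicate 2 (−0.82 ± 0.22, adjusted p = 0.0601) and without any of Xbp1_KO replicates 1, 3 and 4 and Casp8_KO replicates 3 and 4 (adjusted p up to 0.116). WT mice overlapped both knockouts. Tags at the 3′ end may lie outside the deleted exons, which the labels do not name, and other cells of the colon keep both genes, so these levels are a limited check of the genotypes.

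**Figure D1:**
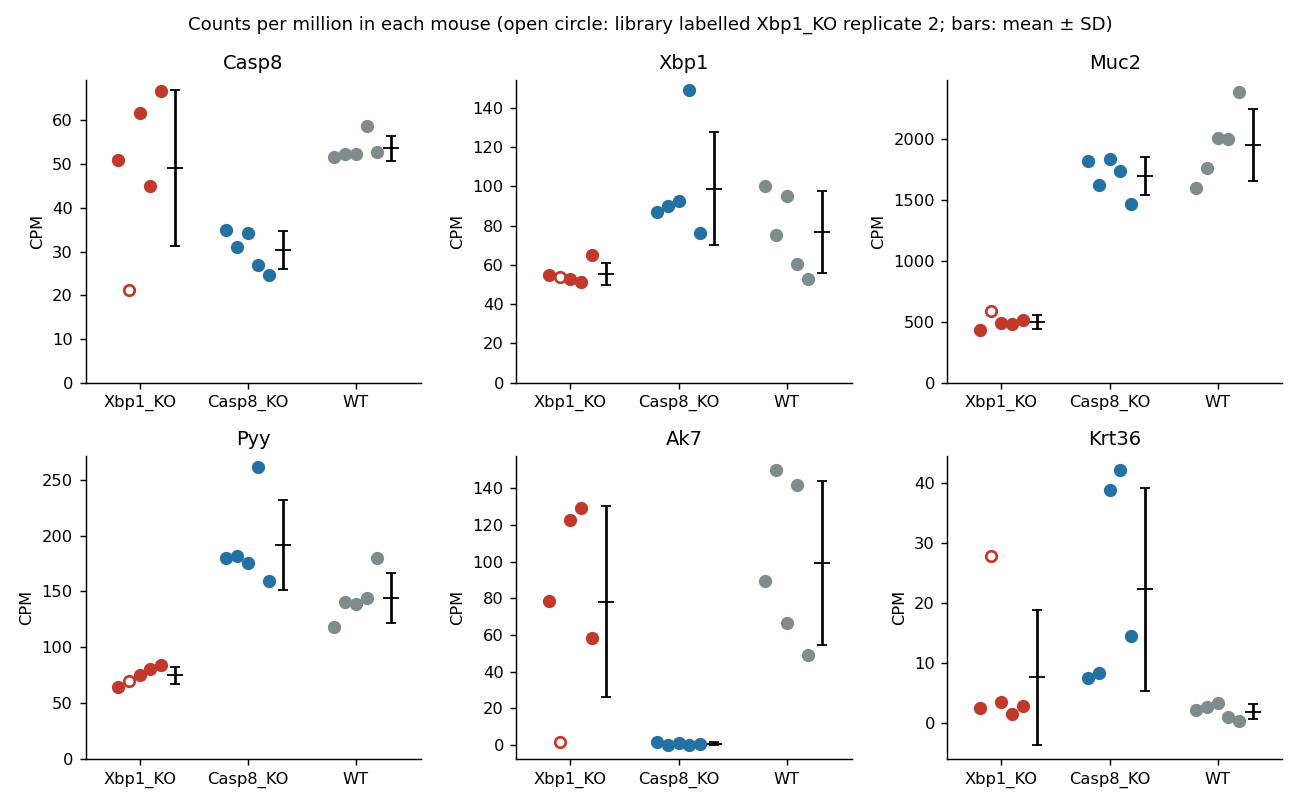
Level of 6 genes in each mouse, in CPM on a linear axis, for Xbp1_KO, Casp8_KO and WT mice (5 each); the open circle is the library labelled Xbp1_KO replicate 2, and the bars give mean ± SD. Muc2 and Pyy of that library lay with the other Xbp1_KO mice, while its Casp8 (21.1), Ak7 (1.85) and Krt36 (27.8) lay with or next to the Casp8_KO mice.

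Of 15458 genes with enough reads to test, 215 differed between Xbp1_KO and Casp8_KO mice (1.39%), 78 of them higher (0.505%) and 137 lower (0.886%) in Xbp1_KO mice. The differences were mostly modest, with a median absolute log2 fold change of 0.565 among the 215 called genes, and 37 of them reached 2-fold, 18 higher and 19 lower. For 175 of the 215 the groups did not overlap; over all genes tested, all Xbp1_KO mice lay above all Casp8_KO mice for 306 (1.98%) and below them for 398 (2.57%). With 4 Xbp1_KO mice against 5, without the library labelled Xbp1_KO replicate 2, these shares were 3.19 and 3.76%. Without the library labelled Xbp1_KO replicate 2, 155 of 15649 genes were called (0.99%), 57 higher (0.364%) and 98 lower (0.626%), and 135 genes were called both ways. Leaving out another Xbp1_KO mouse, replicate 1, 3, 4 or 5, gave 124, 127, 100 and 121 calls, and leaving out Casp8_KO replicates 1 to 5 gave 138, 165, 111, 172 and 126, with 73 genes called every time. With 3 females per knockout alone 12 genes were called, and with 2 males alone 19, with Muc2, Snora81 and Ak7 called in both sexes. Seen against WT, the WT mean lay between the knockouts for 69 of the 78 genes that were higher in Xbp1_KO mice and for 118 of the 137 that were lower. These genes were called for their gap between the knockouts, which by itself favours a WT mean between them. The share over all genes was not counted, so nothing is concluded from these counts.

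**Figure D2:**
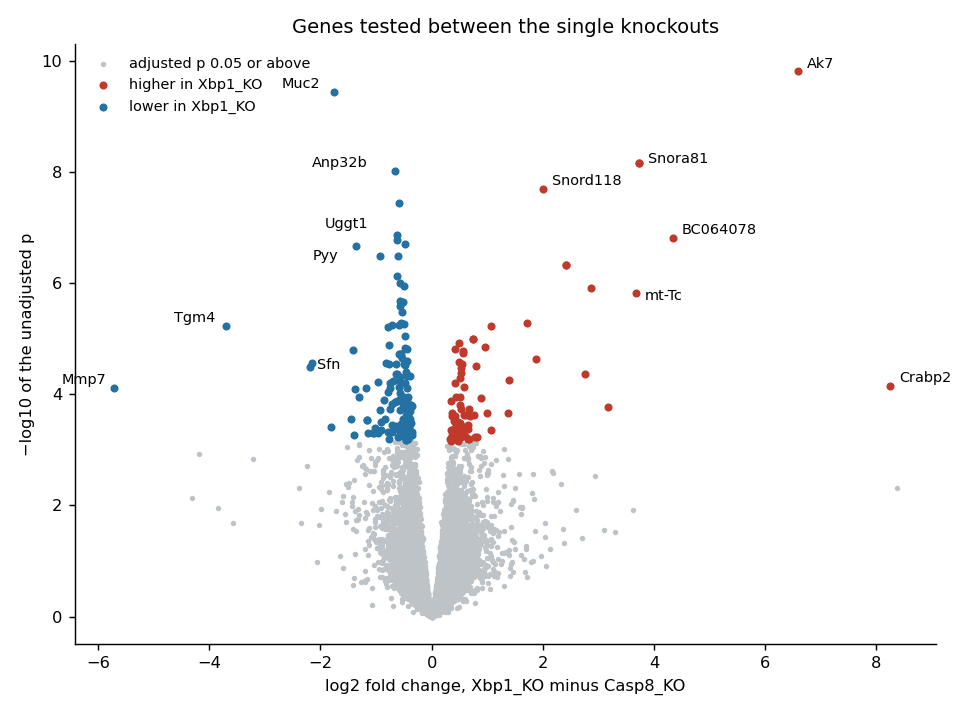
Each of the 15458 genes tested, with the log2 fold change of Xbp1_KO over Casp8_KO on the x axis and −log10 of the unadjusted p on the y axis; red genes were higher and blue genes lower in Xbp1_KO mice at an adjusted p under 0.05, and grey genes were not called. Ak7 and Muc2 stand at the top, and most of the 215 called genes lie within 1 log2 unit of 0.

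Muc2, the gel-forming mucin that goblet cells secrete and that builds the colon's mucus layer, had the smallest p of the genes that were lower in Xbp1_KO mice. It had 431, 587, 493, 480 and 513 CPM in Xbp1_KO mice, against 1824, 1625, 1836, 1740 and 1468 CPM in Casp8_KO mice, with 1597 to 2389 CPM in WT mice. Every Xbp1_KO mouse was far below every Casp8_KO and WT mouse, and Casp8_KO and WT mice overlapped. The mean in Casp8_KO mice was 3.39 times that in Xbp1_KO mice (log2 fold change −1.76 ± 0.20, adjusted p = 2.77e-06; −1.82 ± 0.21, adjusted p = 1.06e-05 without Xbp1_KO replicate 2), and the call held in each of the 24 alternative analyses.

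Muc2 was the single goblet cell gene that was lower. Of 23 tested members of the goblet cell list 1 was higher and 1 lower, where 0.505% of all genes were higher and 0.886% lower. The list's median log2 fold change was 0.04 (0.08 without Xbp1_KO replicate 2), against 0.0041 over all genes tested. The member that was higher was Tff3, a trefoil peptide packed with the mucin, at 911, 901, 890, 1065 and 1124 CPM in Xbp1_KO mice against 693, 648, 645, 629 and 672 CPM in Casp8_KO mice, with 734 to 1170 CPM in WT mice. Tff3 was higher in Xbp1_KO mice (0.57 ± 0.14, adjusted p = 0.0381; 0.60 ± 0.15, adjusted p = 0.0461 without Xbp1_KO replicate 2). Here the Casp8_KO mice lay below all WT mice and the Xbp1_KO mice within the WT range. The granule genes Clca1 (1076 to 1237 CPM in Xbp1_KO mice, 591 to 1275 CPM in Casp8_KO mice), Zg16 (2087 to 2923 CPM and 1855 to 2321 CPM in the same order) and Fcgbp (542 to 703 CPM and 674 to 968 CPM) overlapped between the knockouts and were not called. Muc2 and Tff3, products of the same cells, were thus called in opposite directions, but Tff3 missed the threshold when any of the 9 mice other than Xbp1_KO replicate 2 was left out (adjusted p up to 0.104).

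Genes that serve the secretory pathway are the best known targets of XBP1, and 42 of the 44 in the list used here could be tested. None was higher and 2 were lower in Xbp1_KO mice, where 0.886% of all genes were lower, and the same 2 were called without Xbp1_KO replicate 2. The median log2 fold change was −0.10, both with and without that library, −0.15 without Xbp1_KO replicate 5 and −0.05 without Casp8_KO replicate 4. For 7 members all Xbp1_KO mice lay below all Casp8_KO mice and for 1 they lay above, against 2.57 and 1.98% of all genes. Sec63 assists the channel that moves new proteins into the ER. It had 93.6, 104, 106, 98.2 and 104 CPM in Xbp1_KO mice, against 136, 135, 158, 124 and 153 CPM in Casp8_KO mice, with 114 to 138 CPM in WT mice. Sec63 was lower in Xbp1_KO mice (−0.48 ± 0.09, adjusted p = 0.00405; −0.49, adjusted p = 0.009 without Xbp1_KO replicate 2). Sec61a1, the pore of that channel, had 77, 103, 107, 102 and 104 CPM in Xbp1_KO mice, against 143, 134, 171, 154 and 153 CPM in Casp8_KO mice, with 120 to 165 CPM in WT mice. Sec61a1 was lower in Xbp1_KO mice (−0.62 ± 0.13, adjusted p = 0.01; −0.63, adjusted p = 0.0188 without Xbp1_KO replicate 2). For both genes no Xbp1_KO mouse reached the lowest Casp8_KO or WT mouse. The disulfide isomerase Pdia4, another of the 7, also showed no overlap, with 45.9 to 60.7 CPM in Xbp1_KO mice and 70.1 to 108 CPM in Casp8_KO mice, but it was not called (−0.68 ± 0.20, adjusted p = 0.0841), and here WT mice, at 42.8 to 52.6 CPM, lay with the Xbp1_KO mice.

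Of the 14 ER stress sensors and chaperones tested, only Xbp1 itself was called, where 1.39% of all genes were. Without Xbp1_KO replicate 2 none of the 14 was called. With all mice 13 of the 14 had a negative log2 fold change and the median was −0.16 (−0.17 without Xbp1_KO replicate 2). Without Casp8_KO replicate 4, 4 of the 14 were positive and the median was −0.11, as it was without Xbp1_KO replicate 5. The list summed to 2270, 2452, 2311, 1965 and 2523 CPM in Xbp1_KO mice, against 2517, 2489, 3208, 3532 and 2523 CPM in Casp8_KO mice, with 2093 to 2230 CPM in WT mice. Casp8_KO replicates 4 and 3 stood highest, and they also had the highest summed plasma cell genes (6100 and 5154 CPM); the part of those cells in the result was not tested. The chaperone Hspa5 (BiP) ranged from 315 to 644 CPM in Xbp1_KO mice and from 495 to 950 CPM in Casp8_KO mice, and Calr, a lectin chaperone, from 321 to 491 CPM and from 416 to 669 CPM. Both overlapped and neither was called (adjusted p = 0.44 and 0.119). None of the 16 tested genes of the ATF4 stress response was called (median −0.07, −0.05 without Xbp1_KO replicate 2, −0.12 without Xbp1_KO replicate 5 and −0.01 without Casp8_KO replicate 4).

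A few single genes outside the lists are named here because they were called, after their values were seen, and they say nothing of ER genes as a group. Uggt1, the glucosyltransferase that marks misfolded glycoproteins for another round of folding, had 96.7, 105, 102, 100 and 88 CPM in Xbp1_KO mice, against 142, 136, 157, 162 and 157 CPM in Casp8_KO mice, with 96.8 to 124 CPM in WT mice. Uggt1 was lower in Xbp1_KO mice (−0.62 ± 0.09, adjusted p = 2.58e-04; −0.64, adjusted p = 3.90e-04 without Xbp1_KO replicate 2). Lower too were Rrbp1, a ribosome-binding protein of the rough ER (−0.57 ± 0.13, adjusted p = 0.0256), Magt1, a subunit of the oligosaccharyltransferase (−0.44 ± 0.10, adjusted p = 0.0142), Emc1 of the membrane protein insertion complex (−0.46 ± 0.12, adjusted p = 0.0463), Selenos of the degradation machinery (−0.40 ± 0.10, adjusted p = 0.041) and the thioredoxin domain protein Txndc11 (−0.51 ± 0.12, adjusted p = 0.0317). For Uggt1 and Rrbp1 the Casp8_KO mice lay above every WT mouse and the Xbp1_KO mice overlapped WT. Without Xbp1_KO replicate 2, Emc1, Selenos and Txndc11 missed the threshold, with adjusted p of 0.0987, 0.0628 and 0.0531, while Rrbp1 and Magt1 kept it (0.0241 and 0.0126). Rrbp1 missed it without Xbp1_KO replicate 1, 3 or 4 or Casp8_KO replicate 3 or 4 (up to 0.102), and Magt1 without Xbp1_KO replicate 1 or Casp8_KO replicate 3 (up to 0.0649). The cytosolic chaperone Hsp90ab1 had 1080, 1129, 1088, 943 and 1044 CPM in Xbp1_KO mice, against 1629, 1348, 1963, 1455 and 1634 CPM in Casp8_KO mice, with 1028 to 1257 CPM in WT mice. Hsp90ab1 was lower in Xbp1_KO mice (−0.60 ± 0.09, adjusted p = 3.65e-04; −0.63, adjusted p = 6.84e-04 without Xbp1_KO replicate 2).

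The sequences upstream of these genes are shown for the letters that XBP1 is known to bind. The patterns below were searched on both strands of the 250 bases before each gene's start in RefSeq (GRCm38.p6): TGACGTGG (the UPR element), the ER stress element (CCAAT and CCACG with 9 bases between them) and the short core CCACGT, which is also part of the reverse complement of TGACGTGG. Among all 27025 genes with such a sequence, 0.603% held the first, 0.130% the second and 7.85% the third. Of the 33 members of the secretory list with a promoter, 2 held the first, 4 the second and 13 the third (6.06, 12.1 and 39.4%). A gene with several starts was counted if the sequence before any of them held the pattern. Sec61a1, called in the list beside Sec63, had no such sequence and was not searched. Printed are Muc2, the lower gene of smallest p (chr7:141690090-141690339, + strand), Sec63, 1 of the 2 called list members (chr10:42761246-42761495, + strand), Pdia6 as a list member with an ER stress element (chr12:17266339-17266588, + strand) and Txndc11 with a UPR element (chr16:11134533-11134782, − strand), each 5′ to 3′ with matches in capitals.
Muc2: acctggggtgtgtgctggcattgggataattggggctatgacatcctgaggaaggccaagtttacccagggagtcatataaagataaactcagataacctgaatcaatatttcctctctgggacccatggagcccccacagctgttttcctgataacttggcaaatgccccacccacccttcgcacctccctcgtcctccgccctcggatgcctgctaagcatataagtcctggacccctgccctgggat
Sec63: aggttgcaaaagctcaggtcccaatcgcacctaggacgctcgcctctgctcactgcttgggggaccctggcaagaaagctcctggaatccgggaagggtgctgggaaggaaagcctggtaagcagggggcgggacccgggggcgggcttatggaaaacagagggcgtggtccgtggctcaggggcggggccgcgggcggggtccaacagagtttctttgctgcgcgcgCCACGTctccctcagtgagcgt
Pdia6: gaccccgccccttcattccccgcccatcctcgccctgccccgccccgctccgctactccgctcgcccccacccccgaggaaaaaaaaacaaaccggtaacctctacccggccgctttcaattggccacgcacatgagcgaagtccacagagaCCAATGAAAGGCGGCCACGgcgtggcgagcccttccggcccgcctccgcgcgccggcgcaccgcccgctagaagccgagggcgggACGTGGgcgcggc
Txndc11: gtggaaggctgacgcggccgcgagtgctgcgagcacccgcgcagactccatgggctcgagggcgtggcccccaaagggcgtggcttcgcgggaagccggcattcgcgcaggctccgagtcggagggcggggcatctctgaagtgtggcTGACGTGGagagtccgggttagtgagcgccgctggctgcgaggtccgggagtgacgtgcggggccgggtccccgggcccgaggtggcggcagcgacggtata

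Muc2 held none of the 3 patterns in this window, which says only that these letters are not there. Sec63 held the short core with its first base 22 bases before the start. Pdia6 held an ER stress element and a short core, and its log2 fold change of −0.39 ± 0.14 was not called (adjusted p = 0.194). The 15 tested list members with any match had a median log2 fold change of −0.19 (−0.48 to 0.28, 10 negative), and the 16 without had −0.09 (−0.68 to 0.27, 10 negative), so the ranges overlapped.

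**Figure D3:**
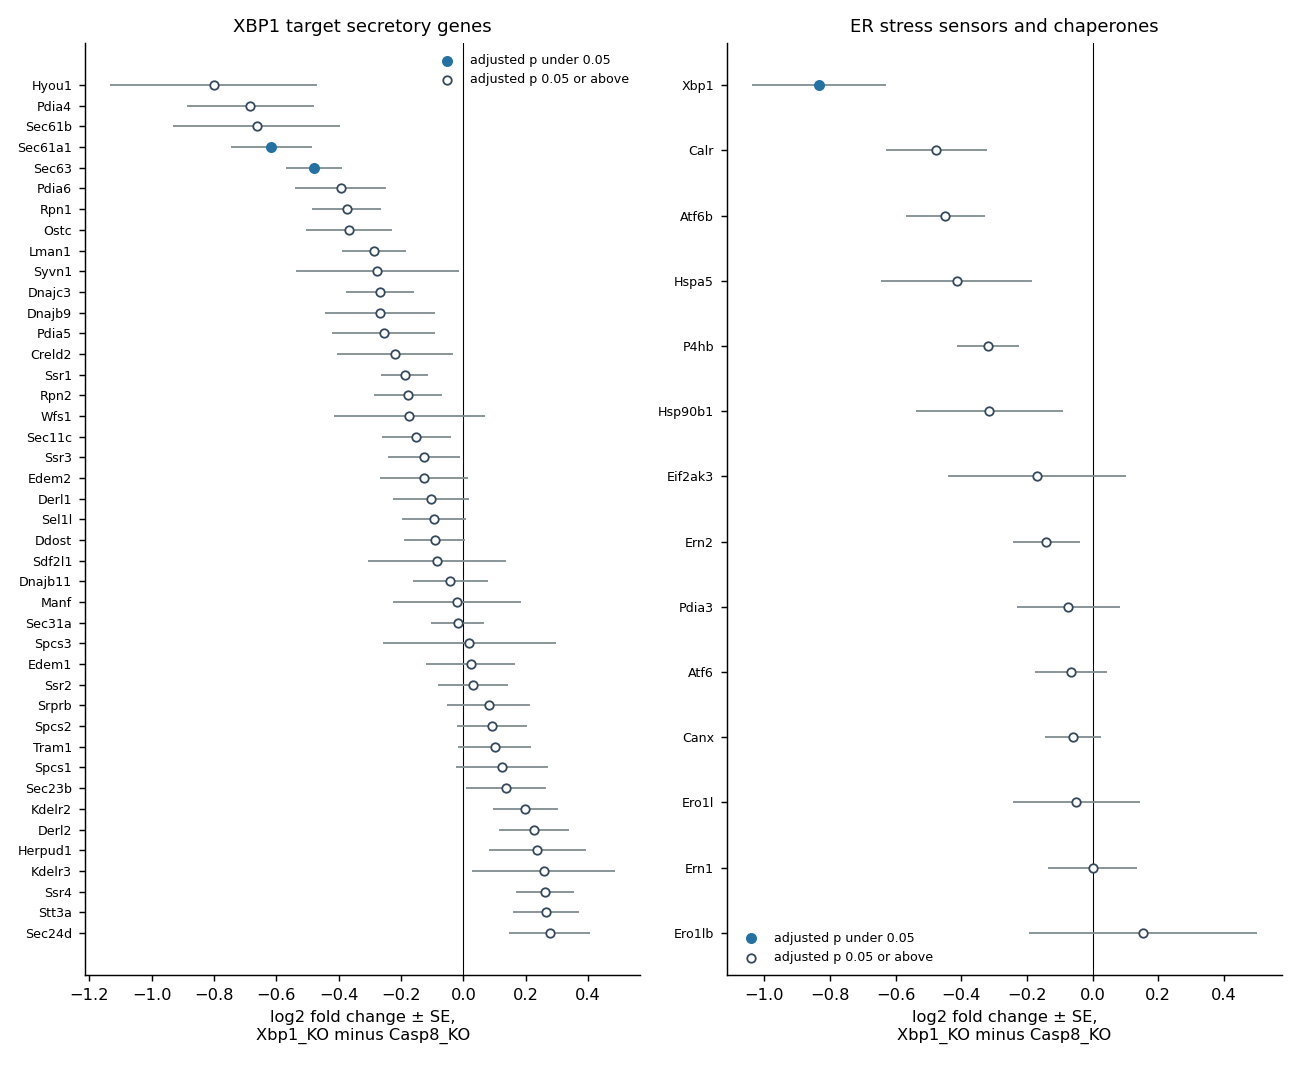
Log2 fold change of Xbp1_KO over Casp8_KO, with its SE, for the 42 tested XBP1 target secretory genes (left) and the 14 ER stress sensors and chaperones (right), sorted by value; filled points had an adjusted p under 0.05. Sec61a1 and Sec63 are the filled points on the left and Xbp1 the one on the right, and 13 of 14 genes on the right lie below 0.

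Enteroendocrine cells are the scattered hormone-producing cells of the epithelium. Of 15 tested members of their list, 3 were lower in Xbp1_KO mice and none was higher. Over all genes tested, 0.886% were lower and 0.505% higher. Pyy encodes peptide YY, released by the L cells of the colon. It had 64.8, 69.5, 75, 80.3 and 84.1 CPM in Xbp1_KO mice, against 180, 182, 176, 261 and 159 CPM in Casp8_KO mice, with 118 to 180 CPM in WT mice. Pyy was lower in Xbp1_KO mice (−1.36 ± 0.21, adjusted p = 2.73e-04; −1.33, adjusted p = 0.00129 without Xbp1_KO replicate 2). All Xbp1_KO mice were below all WT mice, and Casp8_KO mice reached above them. Chga, a granule protein, had 24.9, 46.1, 30.7, 28 and 32.2 CPM in Xbp1_KO mice, against 55.6, 46.9, 50, 60.6 and 52.6 CPM in Casp8_KO mice, with 30.1 to 44.7 CPM in WT mice. Chga was lower in Xbp1_KO mice (−0.71 ± 0.13, adjusted p = 0.00289; −0.87, adjusted p = 1.52e-04 without Xbp1_KO replicate 2). For Chga it was the Casp8_KO mice that stood above every WT mouse, and the library labelled Xbp1_KO replicate 2 came within 1 CPM of the lowest Casp8_KO mouse. Chgb, its relative, overlapped between the knockouts, at 51.8 to 85.3 CPM in Xbp1_KO mice and 83.6 to 119 CPM in Casp8_KO mice. WT mice had 49.5 to 71.5 CPM of Chgb, below every Casp8_KO mouse and overlapping the Xbp1_KO mice. Chgb was lower in Xbp1_KO mice (−0.57 ± 0.13, adjusted p = 0.0165; −0.59, adjusted p = 0.0261 without Xbp1_KO replicate 2), and missed the threshold without Xbp1_KO replicate 3 or 4 or Casp8_KO replicate 2 (up to 0.067). The list's median was −0.16 (−0.22 without Xbp1_KO replicate 2). None of the 10 tested tuft cell genes was called.

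Among genes of the other epithelial cells, Ephb3, a WNT-driven receptor that keeps crypt cells in place, had 21.4, 30.8, 23.2, 28.3 and 24.9 CPM in Xbp1_KO mice, against 51.5, 51.1, 45.3, 53.9 and 42.7 CPM in Casp8_KO mice, with 31.7 to 41.7 CPM in WT mice. Ephb3 was lower in Xbp1_KO mice (−0.93 ± 0.14, adjusted p = 3.65e-04; −0.997, adjusted p = 3.90e-04 without Xbp1_KO replicate 2). The knockouts lay on opposite sides of WT without touching it. Ephb3 was the only gene that passed among 19 stem cell and WNT genes, where 1.39% of all genes were called. The list's median was 0.04, and 0.10 without Xbp1_KO replicate 2. Sfn, the epithelial 14-3-3 sigma protein, had 18.5, 29.4, 32.3, 14.8 and 24.2 CPM in Xbp1_KO mice, against 35.4, 53.1, 96.5, 76.6 and 57.3 CPM in Casp8_KO mice, with 22.3 to 33.5 CPM in WT mice. Sfn was lower in Xbp1_KO mice (−1.42 ± 0.28, adjusted p = 0.00584; −1.50, adjusted p = 0.009 without Xbp1_KO replicate 2). Cdh1, the adhesion protein E-cadherin, stood at 1229 to 1482 CPM in Xbp1_KO mice and 1684 to 1954 CPM in Casp8_KO mice. Cdh1 was lower in Xbp1_KO mice (−0.44 ± 0.09, adjusted p = 0.0106; −0.49, adjusted p = 0.009 without Xbp1_KO replicate 2; chosen after its value was seen). For Sfn and Cdh1 the Casp8_KO mice were again above the WT mice, and the Xbp1_KO mice overlapped WT.

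Of 34 tested genes of absorptive colonocytes and ion transport 1 passed, Muc3, a mucin of the brush border, with 3942, 2847, 3514, 3365 and 3511 CPM in Xbp1_KO mice against 2300, 2820, 2826, 2214 and 2658 CPM in Casp8_KO mice and 2873 to 3196 CPM in WT mice. Muc3 was higher in Xbp1_KO mice (0.42 ± 0.11, adjusted p = 0.042; 0.48, adjusted p = 0.0228 without Xbp1_KO replicate 2). The list's median was 0.0012, and Muc3 missed the threshold when any mouse other than Xbp1_KO replicate 2 or Casp8_KO replicate 2 was left out (up to 0.113). The thioesterase Acot2 was the only called member of 20 tested fatty acid oxidation genes, at 8.72 to 15.5 CPM in Xbp1_KO mice and 18.7 to 28.8 CPM in Casp8_KO mice. Acot2 was lower in Xbp1_KO mice (−0.93 ± 0.22, adjusted p = 0.0261; −0.95, adjusted p = 0.0457 without Xbp1_KO replicate 2). It missed the threshold without Xbp1_KO replicate 1, 4 or 5 or Casp8_KO replicate 1 or 5 (up to 0.098). Each of these lists held 1 call, where 1.39% of all genes were called.

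The call of Krt36 turned on the library labelled Xbp1_KO replicate 2. Krt36, a hair-type keratin also made in the colon, had 2.44, 27.8, 3.52, 1.41 and 2.74 CPM in Xbp1_KO mice, against 7.48, 8.34, 38.9, 42.2 and 14.5 CPM in Casp8_KO mice, with 0.26 to 3.22 CPM in WT mice. It was not called with all libraries (−1.57 ± 0.60, adjusted p = 0.221) and was lower without that one (−3.12, adjusted p = 0.00587). The water channel Aqp4 had 89.7, 246, 80.4, 83.1 and 70.9 CPM in Xbp1_KO mice, against 216, 151, 158, 271 and 84.4 CPM in Casp8_KO mice, with 19 to 55.9 CPM in WT mice. It missed the threshold with every library (−0.63 ± 0.32, adjusted p = 0.4) and without that one (−1.12, adjusted p = 0.0567). The claudin Cldn4, of the tight junction, was not called either way, with −0.71 ± 0.20 (adjusted p = 0.0694) and −0.82 (adjusted p = 0.054), and it was the member of smallest p of its list, in which none of 17 was called.

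That library was set against the means of both knockouts over genes it did not help to choose. Mice of the series that lacked both Xbp1 and Casp8 were not compared with it, so these counts cannot settle its label. Of the 155 genes called without it, its level on the log2(CPM + 1) scale was nearer the mean of the other Xbp1_KO mice for 116 (74.8%) and nearer the Casp8_KO mean for 39. The same share ran from 70.3 to 91.0% for the other 9 libraries when each was left out, with the lowest value in Casp8_KO replicate 4. Its 39 exceptions included Casp8, for whose low level it was set aside, and Ak7, Krt36, Chga, Cd59a, Dcn and Muc3. Its Muc2, Xbp1, Pyy and Snord118 levels lay on the side of the other Xbp1_KO mice.

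Ak7, an adenylate kinase of ciliated cells, had the smallest p of all genes. It had 78.7, 1.85, 123, 130 and 58.3 CPM in Xbp1_KO mice, against 1.73, 0.261, 1.19, 0 and 0.822 CPM in Casp8_KO mice, with 48.9 to 150 CPM in WT mice. Ak7 was higher in Xbp1_KO mice (6.59 ± 0.71, adjusted p = 2.38e-06; 6.90 ± 0.43, adjusted p = 3.29e-12 without Xbp1_KO replicate 2). All Casp8_KO mice were close to 0, and so was the library labelled Xbp1_KO replicate 2. The transcript BC064078, of no stated function, had 0.731, 6.72, 10.8, 10.4 and 26.7 CPM in Xbp1_KO mice, against 0.864, 0, 0.949, 0.509 and 0.274 CPM in Casp8_KO mice, with 5.72 to 15.9 CPM in WT mice. BC064078 was higher in Xbp1_KO mice (4.33 ± 0.64, adjusted p = 2.58e-04; 4.47, adjusted p = 2.15e-04 without Xbp1_KO replicate 2). Crabp2, which carries retinoic acid in the cell, had 8.04, 9.27, 11, 9.66 and 5.94 CPM in Xbp1_KO mice and no read in any Casp8_KO mouse. Against a floor of 3 reads per library, a mean of 0.788 CPM, it was at least 11.1-fold higher in Xbp1_KO mice (adjusted p = 0.0138; 0.0228 without Xbp1_KO replicate 2). WT mice spanned 0 to 26 CPM of Crabp2, from none to above every knockout mouse. With limma voom and quality weights, Ak7, BC064078 and Crabp2 missed the threshold (adjusted p = 0.14, 0.0694 and 0.145).

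Calls near Tnfrsf1a, Xbp1 and Casp8 were counted as well, beside the share of 1.39% over all genes (0.99% without Xbp1_KO replicate 2). Calls near Mlkl, which is also deleted in the series, were not counted. Within 20 Mb of Tnfrsf1a, which encodes TNFR1 and is deleted only in another group, 9 of the 269 genes tested were called (5 higher, 4 lower), and 6 without Xbp1_KO replicate 2 (4 higher, 2 lower). Around Xbp1 4 of 136 were called and 2 without that library, and around Casp8 1 of 227 and 5, so these counts moved with that library and are not set against each other. The 5 include Casp8 itself, for whose low level that library was set aside. The 9 include BC064078, described above (chromosome 6, 128992952 to 129008040), the lectin receptor gene Clec4a2, and Hebp1. Clec4a2 (chromosome 6, 123106428 to 123143999) had a log2 fold change of 1.37 (adjusted p = 0.0283; 0.0531 without Xbp1_KO replicate 2), and missed the threshold without Xbp1_KO replicate 1, 4 or 5 or Casp8_KO replicate 2, 3 or 4 as well (up to 0.0955). Hebp1, a heme-binding protein, had 3.41 to 8.23 CPM in Xbp1_KO mice and 1.19 to 3.01 CPM in Casp8_KO mice, with 3.74 to 5.75 CPM in WT mice, and an adjusted p of 0.0519 without Casp8_KO replicate 3. Hebp1 was higher in Xbp1_KO mice (1.40 ± 0.30, adjusted p = 0.012; 1.38, adjusted p = 0.0242 without Xbp1_KO replicate 2). The complement inhibitor Cd59a, on another chromosome, had 57.5, 39.2, 56.8, 58.9 and 55.3 CPM in Xbp1_KO mice, against 39.7, 18.5, 27.5, 22.4 and 30.4 CPM in Casp8_KO mice. Cd59a was higher in Xbp1_KO mice (0.95 ± 0.19, adjusted p = 0.00548; 1.05, adjusted p = 0.00243 without Xbp1_KO replicate 2). The Casp8_KO mice were below every WT mouse (44.7 to 74.9 CPM), and only the library labelled Xbp1_KO replicate 2 overlapped them.

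Tgm4 and Mmp7 passed on a pair of mice. Tgm4, a transglutaminase of the prostate, had 1.95, 5.10, 3.73, 1.88 and 3.43 CPM in Xbp1_KO mice, against 2.30, 71.9, 3.32, 4.83 and 130 CPM in Casp8_KO mice. Tgm4 was lower in Xbp1_KO mice (−3.70 ± 0.68, adjusted p = 0.00289; −3.92, adjusted p = 0.00615 without Xbp1_KO replicate 2). Mmp7, a matrix protease, had at most 0.229 CPM in Xbp1_KO mice, against 0, 9.12, 0.474, 0 and 21.9 CPM in Casp8_KO mice. Mmp7 was lower in Xbp1_KO mice (−5.71 ± 1.25, adjusted p = 0.014; −5.46, adjusted p = 0.0381 without Xbp1_KO replicate 2), and missed the threshold without Xbp1_KO replicate 4 or Casp8_KO replicate 5 (up to 0.105). The high values in both cases came from Casp8_KO replicates 2 and 5, which are the males of that group, and all other mice of the knockouts stayed at or below 5.10 CPM of Tgm4 and 0.474 CPM of Mmp7. Both missed the threshold with limma voom (adjusted p = 0.192 and 0.195), and Tgm4 also when only the knockouts compared were fitted (0.067).

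The muscle and connective tissue of the wall showed calls in both directions. Lmod1, which nucleates actin filaments in smooth muscle, had 92.3, 65.8, 86.8, 92.3 and 76.6 CPM in Xbp1_KO mice, against 144, 144, 165, 93.9 and 158 CPM in Casp8_KO mice. Lmod1 was lower in Xbp1_KO mice (−0.77 ± 0.16, adjusted p = 0.00768; −0.69, adjusted p = 0.0287 without Xbp1_KO replicate 2). Cald1, an actin-binding regulator of contraction, had 721, 524, 721, 667 and 673 CPM against 883, 934, 1116, 882 and 1124 CPM in the same order. Cald1 was lower in Xbp1_KO mice (−0.58 ± 0.12, adjusted p = 0.0122; −0.50, adjusted p = 0.0473 without Xbp1_KO replicate 2). Those were the called members of 20 smooth muscle genes, where 0.886% of all genes were lower. The list's median was 0.02 (0.11 without Xbp1_KO replicate 2 and −0.09 without Casp8_KO replicate 4). The major myosin Myh11 stood at 1138 to 1878 CPM in Xbp1_KO mice and 981 to 2162 CPM in Casp8_KO mice.

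Of 20 fibroblast and matrix genes 1 passed, the small proteoglycan Dcn. It had 829, 571, 822, 760 and 715 CPM in Xbp1_KO mice against 489, 497, 368, 353 and 612 CPM in Casp8_KO mice. WT mice, at 786 to 862 CPM of Dcn, overlapped the Xbp1_KO mice and lay above every Casp8_KO mouse. Dcn was higher in Xbp1_KO mice (0.67 ± 0.18, adjusted p = 0.0473; 0.75, adjusted p = 0.0354 without Xbp1_KO replicate 2). Dcn missed the threshold when any mouse other than Xbp1_KO replicate 2 or Casp8_KO replicate 5 was left out (up to 0.14). Over all genes tested, 0.505% were called higher (0.364% without Xbp1_KO replicate 2). The list's median was 0.28, and 17 of its 20 members had a positive log2 fold change. Without Xbp1_KO replicate 2 the median was 0.37 and 2 members passed, Dcn and the microfibril protein Mfap4 (0.73, adjusted p = 0.0193; 0.58, adjusted p = 0.101 with every library). Tcf21, a transcription factor of mesenchymal cells, had 26.3, 20.6, 21.8, 22.1 and 24.5 CPM in Xbp1_KO mice, against 14.4, 14.1, 9.49, 7.12 and 9.86 CPM in Casp8_KO mice, with 11.4 to 21.6 CPM in WT mice. Tcf21 was higher in Xbp1_KO mice (1.07 ± 0.20, adjusted p = 0.00289; 1.11, adjusted p = 0.00425 without Xbp1_KO replicate 2). Foxf1, another mesenchymal factor, stood at 28.8 to 37.3 CPM in Xbp1_KO mice and 19 to 27.6 CPM in Casp8_KO mice, with 30.8 to 38.6 CPM in WT mice. Foxf1 was higher in Xbp1_KO mice (0.59 ± 0.13, adjusted p = 0.014, with 0.0425 without Xbp1_KO replicate 2 and 0.0508 without Casp8_KO replicate 3; chosen after its value was seen). Pcp4, a calmodulin regulator of muscle and neurons, was not called (0.71 ± 0.23, adjusted p = 0.12; 0.85, adjusted p = 0.0531 without Xbp1_KO replicate 2). No gene of the endothelium (15 tested) or of enteric neurons and glia (18 tested) passed.

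Small nucleolar RNAs and mitochondrial transfer RNAs held calls in one direction, higher in Xbp1_KO mice. Of 36 identifiers of small nucleolar RNAs (snoRNAs), which guide the processing of ribosomal RNA, 5 were higher and none was lower (13.9%, where 0.505% of all genes were higher), with the same counts without Xbp1_KO replicate 2. The 5 include Rnu3a under 2 identifiers with the same values, and Snora81, which overlaps other genes, so they are not 5 separate results and the share is too high. Snord118 (U8) is needed for the large subunit RNA and Snora81 guides its modification. Both are printed because they are the snoRNAs of smallest p, from GENCODE M21 on GRCm38 (chr11:69073427-69073561 and chr16:23110756-23110933, both + strand), 5′ to 3′, with their longest run of A in capitals, since the library kit primes on runs of A at transcript ends.
Snord118: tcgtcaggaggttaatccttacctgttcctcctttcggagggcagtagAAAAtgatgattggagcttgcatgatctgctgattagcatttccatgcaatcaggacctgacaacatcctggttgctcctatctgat
Snora81: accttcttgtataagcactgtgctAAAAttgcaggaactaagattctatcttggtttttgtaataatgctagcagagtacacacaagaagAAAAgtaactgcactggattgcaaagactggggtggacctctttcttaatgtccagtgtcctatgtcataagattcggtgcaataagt

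Neither ends in a run of A, and the longest inner run is 4 bases in each. Snord118 had 121, 193, 107, 172 and 171 CPM in Xbp1_KO mice, against 32, 54.2, 21.6, 62.1 and 19.7 CPM in Casp8_KO mice, with 61.4 to 135 CPM in WT mice. Snord118 was higher in Xbp1_KO mice (2.0 ± 0.27, adjusted p = 5.20e-05; 1.91, adjusted p = 2.11e-04 without Xbp1_KO replicate 2). Snora81 had 19.7, 19.2, 15.7, 18.8 and 15.1 CPM in Xbp1_KO mice, against 1.44, 0.781, 1.90, 1.78 and 0.548 CPM in Casp8_KO mice, with 5.45 to 8.36 CPM in WT mice. Snora81 was higher in Xbp1_KO mice (3.73 ± 0.48, adjusted p = 2.71e-05; 3.71, adjusted p = 9.26e-05 without Xbp1_KO replicate 2). For Snora81 the knockouts lay on opposite sides of WT. The overlapping Gm49346 had the same level in every mouse, and both lie within Eif4a2 (chromosome 16, 23107444 to 23114136), an RNA helicase gene of which 26.5 to 36.5 CPM were counted in Xbp1_KO mice and 13.7 to 19.7 CPM in Casp8_KO mice (0.998 ± 0.24, adjusted p = 0.0283; 0.0531 without Xbp1_KO replicate 2). Reads of these 3 overlapping genes cannot be told apart.

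The U3 snoRNA gene Rnu3a had 8.23 to 12.5 CPM in Xbp1_KO mice and 1.10 to 2.88 CPM in Casp8_KO mice (2.42 ± 0.38, adjusted p = 4.63e-04; 2.42, adjusted p = 0.00117 without Xbp1_KO replicate 2), under 2 gene identifiers with the same values. Gm26225, another gene annotated as a snoRNA and named after its value was seen, had 7.77 to 16.1 CPM and 0.712 to 2.19 CPM (2.87 ± 0.48, adjusted p = 9.34e-04; 2.88, adjusted p = 0.00193 without Xbp1_KO replicate 2). The summed level of all snoRNAs and related Cajal body RNAs was 1836 to 2879 CPM in Xbp1_KO mice, 1449 to 2016 CPM in Casp8_KO mice and 1036 to 1789 CPM in WT mice. It overlapped between the knockouts, unlike the called members.

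Mitochondrial transfer RNAs showed the same direction, with 4 of 15 called with and without Xbp1_KO replicate 2 (26.7%), all higher in Xbp1_KO mice. Over all genes tested, 0.505% were higher (0.364% without Xbp1_KO replicate 2). The median log2 fold change of the 15 was 0.99 (1.08 without Xbp1_KO replicate 2). mt-Tq, the glutamine tRNA, had 105, 114, 117, 88.6 and 65.4 CPM in Xbp1_KO mice, against 35.1, 24, 28, 32.8 and 28.5 CPM in Casp8_KO mice, with 62.0 to 146 CPM in WT mice. mt-Tq was higher in Xbp1_KO mice (1.72 ± 0.31, adjusted p = 0.00289; 1.66, adjusted p = 0.0073 without Xbp1_KO replicate 2). mt-Tc, the cysteine tRNA, had 4.11 to 20.5 CPM in Xbp1_KO mice and 0.474 to 1.15 CPM in Casp8_KO mice (3.67 ± 0.62, adjusted p = 0.00112; 3.67, adjusted p = 0.00215 without Xbp1_KO replicate 2). mt-Tl2 and mt-Ts2, for leucine and serine, were called too (1.87 ± 0.38, adjusted p = 0.00707, and 2.77 ± 0.58, adjusted p = 0.01), the second from at most 6.34 CPM, and stayed called without Xbp1_KO replicate 2 (adjusted p = 0.0126 and 0.013). The summed level of the mitochondrial tRNAs was 309 to 406 CPM in Xbp1_KO mice, 183 to 228 CPM in Casp8_KO mice and 326 to 590 CPM in WT mice, so here the Casp8_KO mice stood apart and the Xbp1_KO mice overlapped WT. mt-Nd6, the complex I subunit encoded on the light strand, had 1081 to 2002 CPM in Xbp1_KO mice and 2235 to 2541 CPM in Casp8_KO mice. WT mice, at 1296 to 2184 CPM of mt-Nd6, overlapped the Xbp1_KO mice and lay below every Casp8_KO mouse. mt-Nd6 was lower in Xbp1_KO mice (−0.64 ± 0.16, adjusted p = 0.0374; −0.62, adjusted p = 0.0739 without Xbp1_KO replicate 2), and it missed the threshold without any mouse but Xbp1_KO replicate 1 (up to 0.119).

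**Figure D4:**
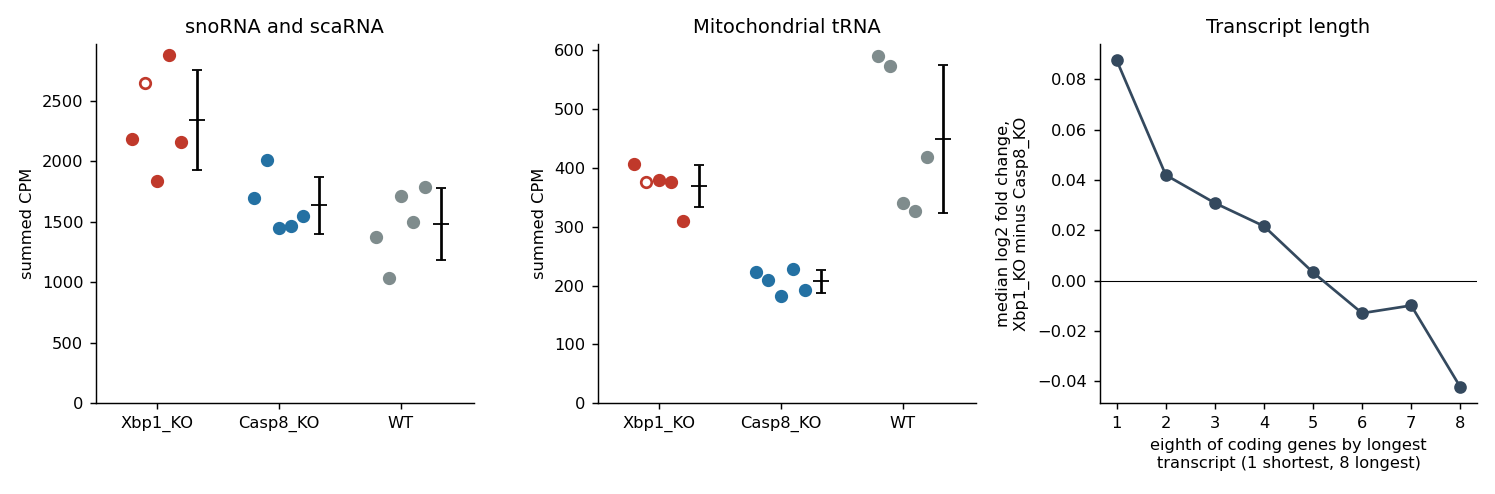
Summed level of snoRNAs and Cajal body RNAs (left) and of mitochondrial tRNAs (middle) in each mouse, in CPM, with the mean ± SD and the library labelled Xbp1_KO replicate 2 as an open circle, and (right) the median log2 fold change of coding genes in 8 bins of equal size by the length of their longest transcript, on an axis that spans little more than 0.1. Mitochondrial tRNAs lay at 183 to 228 CPM in Casp8_KO mice and at 309 CPM or more in all others, and the medians run from 0.09 in the shortest bin to −0.04 in the longest.

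Coding genes showed a slight tilt by length. In 8 bins of equal size by longest transcript, the median log2 fold change was 0.09 in the bin of shortest transcripts (180 to 1618 bases) and −0.04 in that of the longest (6409 bases and more), and Spearman's rho between log2 fold change and length was −0.14 across 13124 genes, which share their libraries and are not replicates. Called coding genes that were higher in Xbp1_KO mice had a median longest transcript of 2204 bases, those that were lower 3811 bases, and all coding genes tested 3448 bases. The ratio of the summed CPM of the longest to that of the shortest 4th part of coding genes was 0.758 to 0.809 in Xbp1_KO mice, 0.788 to 0.917 in Casp8_KO mice and 0.744 to 0.863 in WT mice. With the length trend removed from each library 228 genes were called, 199 of them among the 215.

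Some further called genes were named after their values were seen, and no list of nuclear or splicing genes was counted. The nuclear long non-coding RNA Malat1 had 9811, 9828, 9348, 8778 and 9134 CPM in Xbp1_KO mice, against 14188, 12302, 15966, 13184 and 15228 CPM in Casp8_KO mice, with 9958 to 10953 CPM in WT mice. Malat1 was lower in Xbp1_KO mice (−0.60 ± 0.12, adjusted p = 0.00616; −0.61, adjusted p = 0.0126 without Xbp1_KO replicate 2). The knockouts again stood on opposite sides of WT. Acin1, a splicing factor of the exon junction complex, had 177 to 209 CPM in Xbp1_KO mice and 269 to 307 CPM in Casp8_KO mice (−0.59 ± 0.08, adjusted p = 8.10e-05), and the histone chaperone Anp32b had 65.3 to 73.3 CPM and 97.6 to 129 CPM (−0.66 ± 0.09, adjusted p = 2.92e-05). Both were called without Xbp1_KO replicate 2 as well (adjusted p = 1.52e-04 for Acin1 and 1.86e-04 for Anp32b). Both overlapped WT in Xbp1_KO mice (192 to 223 CPM of Acin1 and 59.5 to 71.1 CPM of Anp32b in WT) and stood above it in Casp8_KO mice. Srrm2, Srrm1, Srek1, Rbm25 and Prpf38b, which encode splicing proteins, were picked the same way and were lower, by log2 fold changes of −0.37 to −0.58; Srrm1, at the first of these values, missed the threshold when any mouse was left out (up to 0.134), and Srrm2 and Rbm25 without Casp8_KO replicate 3 (0.0516 and 0.0508). On the other side, 3 of 61 cytosolic ribosomal protein genes, 3 of 77 mitochondrial ones and 2 of 36 complex I genes were higher and none was lower (4.92, 3.90 and 5.56%, where 0.505% of all genes were higher). Without Xbp1_KO replicate 2 the counts were 2, 2 and 2 (0.364% of all genes). The median log2 fold changes of these classes with all mice were 0.074, 0.065 and 0.071. In the bin of shortest coding transcripts, 21 of 1643 genes were higher and 10 lower, with a median of 0.09. Whether the calls in these classes go beyond that length tilt was not tested. Rpl39 had 49.2 to 61.7 CPM in Xbp1_KO mice and 28.5 to 38.9 CPM in Casp8_KO mice. Rpl39 was higher in Xbp1_KO mice (0.80 ± 0.16, adjusted p = 0.00785; 0.80, adjusted p = 0.0173 without Xbp1_KO replicate 2).

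Of the immune cell and interferon lists only that of monocytes held a call, and single mice stood far out. All 31 tested genes of the type I interferon response had a positive log2 fold change, with a median of 1.27, but none was called. The list summed to 586, 698, 518, 626 and 4938 CPM in Xbp1_KO mice, against 798, 531, 1122, 1120 and 429 CPM in Casp8_KO mice, with 455 to 625 CPM in WT mice. Xbp1_KO replicate 5 alone was high, and without it 5 of the 31 were positive and the median was −0.43. In that mouse Ifi27l2a, an interferon-induced mitochondrial protein, stood at 378 CPM and the interferon regulator Irf7 at 335 CPM, against 19.1 to 22.7 and 24.9 to 35.3 CPM in the other Xbp1_KO mice. Ifi27l2a did not overlap between the knockouts even so, with 7.77 to 15.8 CPM in Casp8_KO mice (2.93 ± 0.91, adjusted p = 0.1). None of 31 interferon gamma and antigen presentation genes was called (median 0.36, and 0.05 without Xbp1_KO replicate 5).

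Plasma cell genes, which make the gut's antibodies, summed to 748, 2584, 1150, 1764 and 1114 CPM in Xbp1_KO mice, against 4421, 1642, 5154, 6100 and 1893 CPM in Casp8_KO mice, with 484 to 1620 CPM in WT mice. The female Casp8_KO mice, replicates 1, 3 and 4, were the highest, and the males overlapped the Xbp1_KO mice. The WT range is mainly that of males, as WT replicate 3, at 743 CPM, was the only female. None of 16 genes was called, and Igha, the constant region of IgA, had a log2 fold change of −1.51 ± 0.49 (adjusted p = 0.13; −1.87, adjusted p = 0.0711 without Xbp1_KO replicate 2). B cell and follicle genes leaned the other way, at 82.6 to 313 CPM in sum in Xbp1_KO mice and 40.6 to 238 CPM in Casp8_KO mice, with 16 of 17 positive, a median of 0.86 (0.64 without Xbp1_KO replicate 2) and none called. The epithelial antimicrobial list had a median of −0.89, which was 0.17 without Casp8_KO replicate 4, the mouse with 33.1 CPM of S100a9, 11.7 CPM of Cxcl2 and 20.1 CPM of Il1b.

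Of 20 monocyte and macrophage genes 1 passed, where 0.505% of all genes were higher in Xbp1_KO mice. Lgmn, a lysosomal protease, had 23.6, 13.4, 19.7, 21 and 20.8 CPM in Xbp1_KO mice, against 12.1, 15.1, 5.93, 14.2 and 10.1 CPM in Casp8_KO mice. Lgmn was higher in Xbp1_KO mice (0.78 ± 0.20, adjusted p = 0.0461; 0.89, adjusted p = 0.0241 without Xbp1_KO replicate 2), and missed the threshold without any mouse but Xbp1_KO replicate 2 and Casp8_KO replicates 2 and 4 (up to 0.148). The list summed to 535 to 691 CPM in Xbp1_KO mice and 411 to 540 CPM in Casp8_KO mice, and 16 of its 20 members were positive (median 0.28). Tnfsf13b, the B cell survival factor BAFF, was named after its value was seen and had 14.4 to 20 CPM in Xbp1_KO mice and 7.55 to 11.51 CPM in Casp8_KO mice, with 14.5 to 17.7 CPM in WT mice. Tnfsf13b was higher in Xbp1_KO mice (0.89 ± 0.20, adjusted p = 0.0188; 0.95, adjusted p = 0.0188 without Xbp1_KO replicate 2, and up to 0.0647 without Xbp1_KO replicate 1 or 4 or Casp8_KO replicate 1 or 2). None of 10 T and NK cell genes and none of 21 inflammatory cytokine genes was called, and the neutrophil chemokine Cxcl2 missed the threshold (−4.19 ± 1.18, adjusted p = 0.0643).

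**Figure D5:**
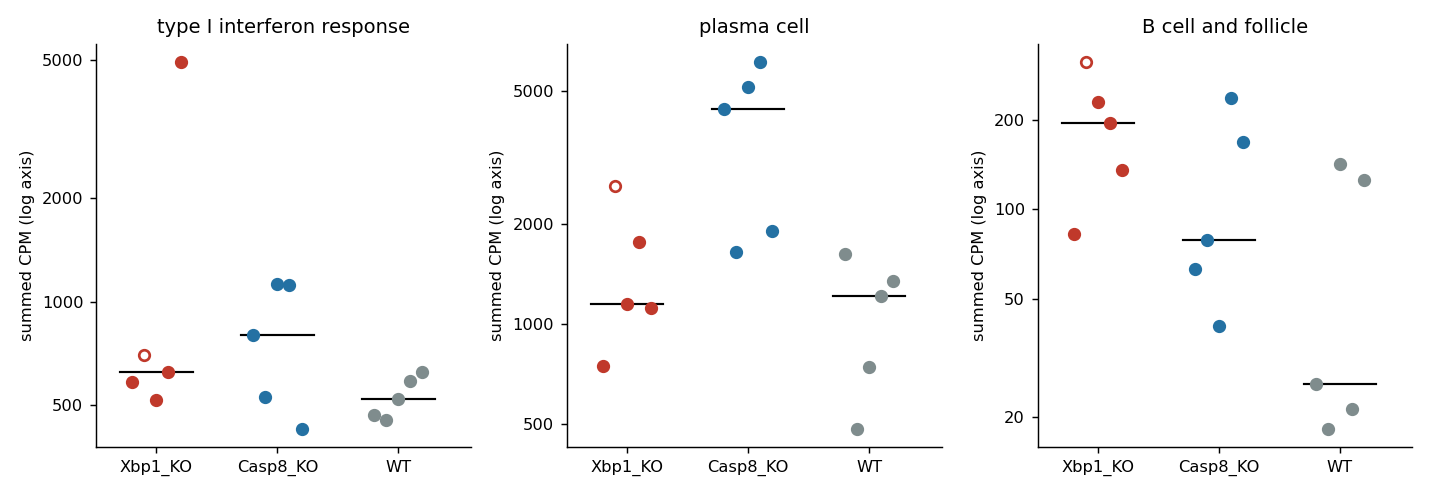
Summed level of the type I interferon, plasma cell and B cell lists in each mouse, in CPM on a log axis, for Xbp1_KO, Casp8_KO and WT mice, with the median of each group as a line and the library labelled Xbp1_KO replicate 2 as an open circle. Xbp1_KO replicate 5 stands out at 4938 CPM on the left, and the 3 highest plasma cell sums, 4421 to 6100 CPM, are those of Casp8_KO mice.

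The lists that follow held no call with every library. Cell death genes (32 tested) had a median of 0.02. Casp8 was called among them without Xbp1_KO replicate 2, the library set aside for its low Casp8. Proliferation genes (26) had −0.09 with 6 positive, and −0.28 with 4 positive without Xbp1_KO replicate 5. Cholesterol synthesis genes (23) had 0.29 with 18 positive, and 0.21 without Xbp1_KO replicate 5. Of these last Lss, lanosterol synthase, did not overlap, with 25.3 to 37.5 CPM in Xbp1_KO mice and 7.20 to 24.9 CPM in Casp8_KO mice (0.59 ± 0.23, adjusted p = 0.237), and the sterol sensor Insig1 overlapped slightly (0.72 ± 0.27, adjusted p = 0.205). Metallothionein and zinc genes (9) had a median of 0.03, with Mt1, the main metallothionein, at 1032 to 1884 CPM in Xbp1_KO mice and 688 to 1773 CPM in Casp8_KO mice. Immediate early genes (16, median −0.09, and −0.04 without Xbp1_KO replicate 5) and clock genes (18, median 0.19, and 0.08 without Casp8_KO replicate 4) were not called. Egr1, an early response factor, had 16.7 to 46.8 CPM in Xbp1_KO mice and 34.8 to 78.6 CPM in Casp8_KO mice. Egr1 was not called (−1.01 ± 0.30, adjusted p = 0.0821). Xenobiotic metabolism (22) and adipose genes (8, median −0.87) held none either, and the median of the first was 0.07, and 0.14 without Xbp1_KO replicate 5. Epithelial regeneration genes (16) had a median of 0.11, which turned to −0.06 without Xbp1_KO replicate 2 and to −0.01 without Xbp1_KO replicate 5.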

How the data were processed

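Colon RNA of 30 mice was sequenced, 5 in each of 6 groups (Lexogen 3′ QuantSeq FWD libraries, per the labels' protocols). The authors deposited estimated counts per gene. The submitters' processing notes name cutadapt 3.2, Subread, featureCounts 2.01, R 4.0.0 and GRCm38/mm10. The strand setting and annotation release were not given in the sources used, so antisense and overlapping genes stay uncertain. Of the nonzero values 11.2% were not whole; they were rounded, which moved no library total by more than 0.00321%. The 92 spike-in rows held no read and 260 of 55487 gene identifiers had no symbol in GENCODE M21 (0.0190% of reads). No column of values was left unused.

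edgeR 4.0.16 (R 4.3.3) fitted all 30 libraries with 1 coefficient per group and a shared spread (common biological coefficient of variation 0.186), TMM factors and its filterByExpr minimum. Xbp1_KO was tested against Casp8_KO by the quasi-likelihood F test with Benjamini-Hochberg adjustment over the 15458 genes kept, at 0.05. SE is the absolute log2 fold change over the square root of F. CPM use TMM-scaled library sizes. Replicates are separate mice and n = 5 per group unless a mouse is left out. The procedure was tested on simulated data.

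Members and gene lists were chosen with earlier results of these data known. Genes were named by a rule: the targeted genes, the 15 of smallest p in each direction with at least a 2-fold change (without immunoglobulin segments and numbered models), up to 4 called or otherwise up to 2 members of smallest p per list, and 9 genes that earlier results had singled out, Muc2, Ak7, Aqp4, Mt1, Insig1, Cd59a, Pcp4, Tgm4 and BC064078; others are marked as chosen after their values were seen. Not every gene picked by the rule is described above. Tuba1b had 0.927 to 4.80 CPM in Xbp1_KO mice and 8.92 to 14.6 CPM in Casp8_KO mice, with 4.40 to 9.48 CPM in WT mice. It was lower in Xbp1_KO mice (−2.195 ± 0.45, adjusted p = 0.00814, and 0.0278 without Xbp1_KO replicate 2). Psap, Ftl1, Eef1akmt3, Zfr2, Haus7 and Slc38a11 were also lower (adjusted p = 0.0319 to 0.0438). All of these missed the threshold without Xbp1_KO replicate 2 (0.06 to 0.0922). No list was tested as a set, and each is given by counts and its median. The 24 alternatives were other scalings, filters, samples, limma 3.58.1, DESeq2 1.42.0, sex, the replicate number as a block and each mouse left out, and 2 chosen after seeing the data, removal of the transcript length trend and a fit of nuclear protein-coding genes.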

Additional observations from a re-analysis of the deposited data

Results flagged for a closer look

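In 178 sets of 5 mice, the highest or lowest mouse was set against the gap to its nearest neighbour as a share of the range (Dixon's critical value 0.71), which chance passes in about 5% of groups; 27 values passed.

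Of the library labelled Xbp1_KO replicate 2, Cd59a (39.16 CPM, other Xbp1_KO mice 55.32 to 58.89), Cald1 (524 CPM, 667.3 to 721.2) and Casp12 (12.51 CPM, 20.96 to 24) were low, and Krt36 (27.81 CPM, 1.413 to 3.522), Aqp4 (246.3 CPM, 70.86 to 89.67), Retnlb (0.927 CPM, 0 to 0.2286) and Cxcl2 (0.6952 CPM, 0 in the others) were high. Of Xbp1_KO replicate 5, the interferon-induced Ifi27l2a (378.1 CPM, 19.06 to 22.71), Irf7 (334.7 CPM, 24.86 to 35.33), Psmb8 (148.8 CPM, 34.8 to 49.23) and B2m (2560 CPM, 600.6 to 838) stood above the other Xbp1_KO mice, and Xbp1 was the highest (65.15 CPM, 51.11 to 54.82). Xbp1_KO replicate 1 was low for Sec61a1 (77 CPM, 102 to 106.7) and high for Sh2d6 (1.462 CPM, 0.4635 to 0.7066).

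Casp8_KO replicate 4 stood above the other Casp8_KO mice for Pyy (261.3 CPM, 158.9 to 181.5), Xbp1 (149.3 CPM, 76.17 to 92.5), Cxcl2 (11.7 CPM, 0.2605 to 1.186), S100a9 (33.08 CPM, 0 to 0.5209), Il1b (20.1 CPM, 0 to 2.015), Cma1 (7.887 CPM, 2.846 to 4.11), Cd3d (1.527 CPM, 0 to 0.274), Icos (7.633 CPM, 1.439 to 3.126) and B2m (1017 CPM, 529 to 657.2). Casp8_KO replicate 1 was high for the immunoglobulin chain Iglc1 (469.8 CPM, 6.772 to 47.32) and Avil (5.757 CPM, 3.014 to 3.386), and low for Lss (7.197 CPM, 22.14 to 24.93) and Haus7 (1.439 CPM, 3.562 to 4.11).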

How the results depend on the processing

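Against 215 genes called (78 higher, 137 lower in Xbp1_KO mice), limma voom with quality weights called 555 (194 and 361) and DESeq2 386 (135 and 251), females alone 12 (7 and 5), males alone 19 (5 and 14) and the fit without Xbp1_KO replicates 2 and 5 called 82 (29 and 53); leaving out 1 mouse gave 100 to 172 calls, 40 to 65 higher and 59 to 112 lower. The limma voom and DESeq2 fits used every library, and the others named here used fewer mice. What caused these differences was not tested. The other settings stayed within 1.5 times the count. With the replicate block 167 genes were called (62 higher, 105 lower), 162 of them among the 215; same-numbered mice had correlations of 0.00, −0.27, 0.02, −0.19 and −0.26 in their deviations from the group means, none was best matched to its own number, and the labels tie the numbers to nothing, so they do not pair the mice. Of the values of 89 named genes under 24 settings, 1805 stayed on the same side of the threshold, 225 lost the call, 31 gained it and 8 changed sign. These were the log2 fold change of Tgm4 in females alone (0.22), the log2 fold change of Iglc1 in males alone (0.34), the log2 fold change of Il1b in males alone (0.42) and without Casp8_KO replicate 4 (0.0894), the log2 fold change of S100a9 and the log2 fold change of Icos without Casp8_KO replicate 4 (0.26 and 0.0173), and the log2 fold change of Irf7 without Xbp1_KO replicate 5 (−0.11) and without replicates 2 and 5 (−0.15). Leaving out 1 mouse moved the log2 fold change of S100a9 between −5.60 and 0.26, of Il1b between −2.65 and 0.0894, of Irf7 between −0.11 and 1.67 and of Icos between −0.88 and 0.0173. At this depth, where 1 read is 0.232 CPM, genes near 1 CPM rest on a few reads.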
